A study of Mus musculus with 3 samples.

Results

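The AP-1 family transcription factors followed here are 10 genes: Fos, Fosb, Fosl2, Jun, Junb, Jund, Atf3, Batf, Batf3 and Jdp2. They were taken by symbol, each symbol matched 1 row, and they are 10 of the 32285 genes in each count matrix. Their levels were described in each library and in cell lineages gated on marker transcripts, and the spread between lineages was set beside the spread between cells of 1 lineage.

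Lymphocytes from perfused, enzyme-digested lungs of mice carrying a GFP reporter of the GFI1B gene (GFI1BGFP) were profiled as single cells by 10x Chromium 3′ sequencing. All cells had been sorted as live CD45+ lin- CD90.2+ IL-7R+, a gate used for innate lymphoid cells (ILC). There were 3 groups of 1 library each: the IL-18R+ pool, which joins IL-18R+ CD103+ GFP- cells with IL-18R+ CD103- GFP+ cells, then the IL-18R- CD103- GFP- labelled library, then the IL-18R- ST2+ library. The cells of the pool cannot be assigned to either of its sorts, so GFP+ cells are not read apart. The sources used here do not give the age, sex, strain background, number or pooling of the mice.

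AP-1 is a dimer of basic leucine zipper proteins that binds DNA sites known as TPA and cAMP response elements. FOS proteins need a JUN partner to bind, whereas JUN proteins also pair with each other, and ATF3, BATF, BATF3 and JDP2 pair with JUN proteins and can repress or redirect their target genes. Fos, Fosb, Jun, Junb and Atf3 are immediate early genes that stimulation or stress, including tissue digestion, can switch on within minutes. In lymphocytes BATF works with IRF4 and JUN proteins in type 17 helper T cells, and BATF3 is best known for its role in cross-presenting dendritic cells.

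On the GENCODE M21 annotation of GRCm38 the family has 2 clusters. Fos (chromosome 12, 85473890 to 85477273), Jdp2 (85599027 to 85639878) and Batf (85686669 to 85709087) follow each other on the plus strand, 121.8 and 46.8 kb apart, with 0 protein-coding genes between neighbours. Batf3 (chromosome 1, 191097847 to 191108945, plus strand) and Atf3 (191170296 to 191218039, minus strand) are 61.4 kb apart, with Fam71a between them. Jun, Junb, Jund and Jdp2 each overlap a gene on the other strand that is also in the matrices (Junos, Prdx2, Gm11175 and Gm47863), and the strand setting of the counting was not stated in the labels.

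The promoters of Fos, Jun and Fosb are shown because these 3 immediate early genes were low together in other γδ and other αβ T-like cells of the IL-18R- CD103- GFP- labelled library. Each line is the 250 bases upstream of the RefSeq start (GRCm38.p6), written along the gene's own strand: chr12:85473640-85473889 (plus) for Fos, chr4:95052223-95052472 (minus) for Jun and chr7:19310046-19310295 (minus) for Fosb. Capitals mark every match, on either strand, to TGACTCA (the TPA response element), TGACGTCA (the cAMP response element), TGACATCA (a variant of it), TGACGT (its core) or TATAAA (the TATA box).
Fos: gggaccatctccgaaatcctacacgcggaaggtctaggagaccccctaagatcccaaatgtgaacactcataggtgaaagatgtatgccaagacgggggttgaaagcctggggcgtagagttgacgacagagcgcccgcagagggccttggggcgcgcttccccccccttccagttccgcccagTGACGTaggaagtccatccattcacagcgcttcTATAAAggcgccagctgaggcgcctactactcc
Jun: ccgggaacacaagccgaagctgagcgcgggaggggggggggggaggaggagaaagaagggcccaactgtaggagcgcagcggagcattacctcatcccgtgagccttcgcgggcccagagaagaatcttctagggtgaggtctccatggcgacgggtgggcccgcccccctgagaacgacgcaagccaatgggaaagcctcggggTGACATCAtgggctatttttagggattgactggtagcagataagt
Fosb: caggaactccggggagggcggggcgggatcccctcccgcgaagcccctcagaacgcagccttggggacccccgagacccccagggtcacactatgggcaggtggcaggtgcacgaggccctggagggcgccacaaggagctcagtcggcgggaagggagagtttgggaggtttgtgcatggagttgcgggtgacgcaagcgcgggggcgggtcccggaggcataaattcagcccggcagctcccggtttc
The Fos window held TGACGT at -66 and TATAAA at -33, and the Jun window held TGACATCA at -45, counting the base before the start as -1. The Fosb window held none of the 5 motifs. The same search over the windows of all 10 genes found TGACGT in Batf (-98) and in Atf3 (-8, on the opposite strand) and no match in Fosl2, Junb, Jund, Batf3 or Jdp2. TGACGT, which the longer TGACGTCA contains, was present in 6.47% of 32851 RefSeq promoter windows of the same length, TATAAA in 12.4%, TGACATCA in 2.93%, TGACTCA in 4.46% and TGACGTCA in 1.55%.

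After filtering, 1655, 1872 and 1611 cells remained, in the order above, with 8970571, 9598728 and 7891960 UMIs and median UMIs per cell of 4930, 4768 and 4568. With 1 library per group no test is possible: every interval is a 95% counting interval, and differences in mice, sorting, handling and chemistry between libraries cannot be told apart from differences between groups. Levels are UMIs per 1000000 UMIs (UPM) of the library or set. The 3′ chemistry counts molecules, so UPM needs no length correction. A difference is called higher or lower by a size rule, a ratio of at least 2 (sums raised to 3 UMIs) where either level reached 20 UPM. Il18r1 transcript was found in 92.3% of the type 17 γδ T-like cells of the IL-18R- CD103- GFP- labelled library. The label names a sort on protein and the value is of RNA, so they need not match. Because of this value the library is named by its label. The pool and that library shared 1 barcode, and the other pairs of libraries shared 0.

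Lineages were set per cell from marker UMIs, without clustering. T cell gates needed at least 2 UMIs of CD3 genes, with Trdc or Trac separating γδ from αβ cells and at least 2 UMIs of type 17 genes (such as Il17a and Il23r) separating type 17 cells from those with 0. The pool held 664 type 17 γδ T-like, 44 other γδ T-like, 135 type 17 αβ T-like, 51 other αβ T-like, 48 ILC1 and NK-like, 32 ILC3-like and 30 ILC progenitor-like cells, with 127 cells in myeloid, B cell or stromal gates and 502 in none. In the IL-18R- CD103- GFP- labelled library there were 970, 252, 13, 80, 34, 38 and 2 cells of the same 7 lymphoid gates, and 436 in none. The IL-18R- ST2+ library held 1158 ILC2-like cells and 397 in no gate. Markers that no gate used bore out the type 17 γδ and ILC2-like names. Trdv4 stood at 1207 and 1252 UPM in the type 17 γδ gates of the first 2 libraries. Il5 stood at 190 UPM in ILC2-like cells. Trdv4 also had 150 UPM in ILC2-like cells, where it was found in 44.2% of cells. No such values are given here for the ILC3-like and ILC progenitor-like names, which rest on the gate genes. The gates need not hold the same cells in each library. Gzma was 987 UPM in ILC1 and NK-like cells of the pool and 0 in those of the IL-18R- CD103- GFP- labelled library, and Cd4 was 0 UPM in ILC3-like cells of the pool against 209 UPM in those of the IL-18R- CD103- GFP- labelled library.

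By whole library, the FOS and JUN genes were at similar levels except for Fosb, which was highest in the IL-18R- ST2+ library. Fos, the prototype immediate early partner of JUN, had 1135 UPM (1114 to 1158) in the pool, 818 UPM (800 to 836) in the IL-18R- CD103- GFP- labelled library and 1075 UPM (1053 to 1098) in the IL-18R- ST2+ library. Fosb, a relative of Fos induced with it, had 567, 428 and 1476 UPM in the same order. Fosl2, which encodes the slower FRA-2, had 613, 537 and 832 UPM. The pool stood at 0.384 (0.372 to 0.397) of the IL-18R- ST2+ library for Fosb, and the IL-18R- CD103- GFP- labelled library at 0.290 (0.280 to 0.300) of it.

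The JUN genes moved less. Junb, the most abundant member in each library, had 4449, 4215 and 5001 UPM, and Jund, the constitutively expressed JUN, 1498, 1158 and 1706 UPM. Jun itself, the inducible transactivator, had 758 UPM (740 to 776) in the pool, 582 UPM (567 to 597) in the IL-18R- CD103- GFP- labelled library and 583 UPM (566 to 600) in the IL-18R- ST2+ library. None of the 3 passed the size rule in any pair of libraries.

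Atf3, a stress-induced repressor, had 347.5 UPM in the pool, 167 UPM in the IL-18R- CD103- GFP- labelled library and 479.7 UPM in the IL-18R- ST2+ library. Jdp2, a JUN dimerisation partner that represses AP-1 sites, had 45.9, 13.2 and 35.0 UPM, and Batf 50.9, 40.0 and 29.8 UPM. Batf3 was the rarest member, with 19.3 UPM (173 UMIs), 6.77 UPM (65 UMIs) and 0.634 UPM (5 UMIs), and it stayed under the 20 UPM minimum in each library.

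Members called in the pool over the IL-18R- CD103- GFP- labelled library were Atf3 (2.08, 1.96 to 2.21) and Jdp2 (3.47, 2.84 to 4.27), 2 higher and 0 lower of 9 measured, where 2.55% of 5812 measured genes were higher and 0.791% lower. The Atf3 call ends once myeloid, B and stromal cells are left out (301 UPM in the pool and 160 UPM in the IL-18R- CD103- GFP- labelled library, log2 ratio 0.91) and under TMM scaling (0.92). Those cells held 19.4% of the Atf3 UMIs of the pool and 5.37% of those of the IL-18R- CD103- GFP- labelled library. Over the IL-18R- ST2+ library, 0 of 9 measured members were higher and 1 was lower in the pool (Fosb), where 12.3% of 5930 genes were higher and 4.33% lower. Against the same library, 0 of 9 were higher and 3 lower (Fosb, Atf3 and Jdp2) in the IL-18R- CD103- GFP- labelled library, where 9.57% of 5736 genes were higher and 5.4% lower. The 3 pairs share libraries.

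**Figure D1:**
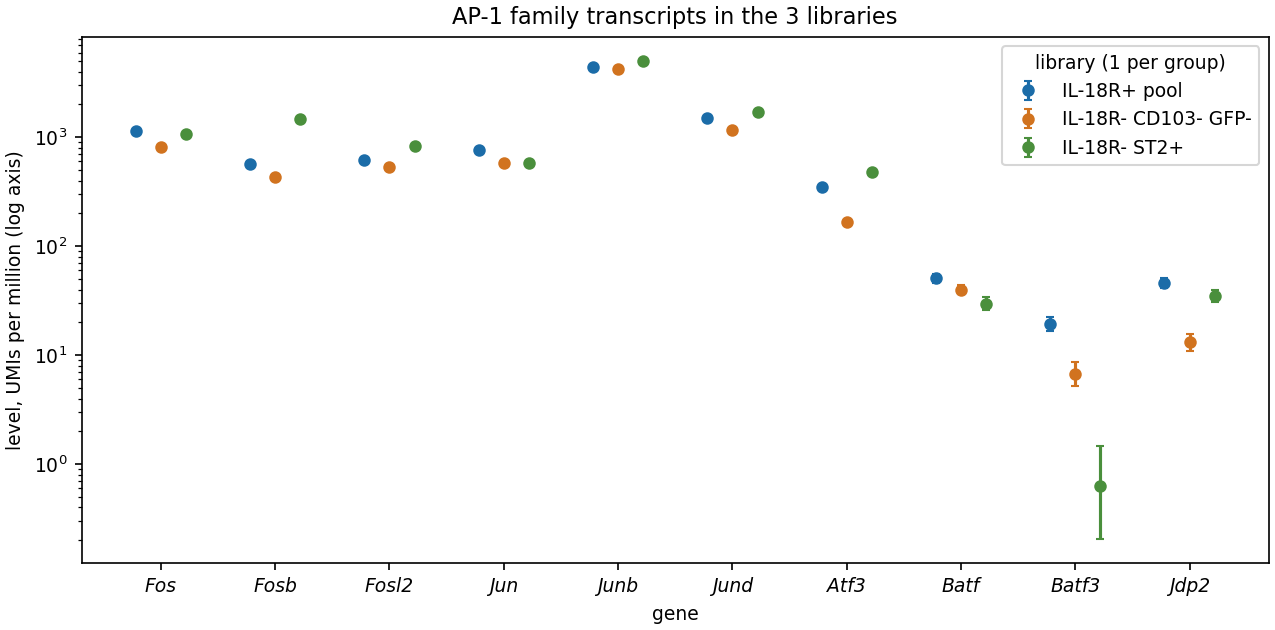
Level of each AP-1 gene in UPM (log axis) in the 3 libraries, 1 point per library with its 95% counting interval. Junb lies at 4215 UPM or more in every library, Fosb is highest in IL-18R- ST2+ at 1476 UPM, and Batf3 falls to 0.634 UPM there.

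Between lineages of 1 library the sharpest member was Batf3. In the pool it had 152 UPM (115 to 196) in ILC1 and NK-like cells, 108 UPM (72.6 to 156) in ILC progenitor-like cells and 43.2 UPM (21.6 to 77.3) in ILC3-like cells, against 0.319 UPM (1 UMI in 664 cells) in type 17 γδ T-like cells. The other γδ, type 17 αβ and other αβ T-like sets of the pool held 0 UMIs, where 3 UMIs would be 13.1, 3.85 and 9.81 UPM. Of the 11 UMIs in pool ILC3-like cells, 8 lay in 1 cell. All 3 CD3-negative sets therefore stood above the T cell sets, and without the ILC3-like set's top cell the level there rests on 3 UMIs.

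In the IL-18R- CD103- GFP- labelled library the order was different. Batf3 had 131 UPM (86.6 to 191) in ILC3-like cells, 10.4 UPM (2 UMIs) in ILC1 and NK-like cells and 1.37 UPM (6 UMIs) in type 17 γδ T-like cells. It had 0 UMIs in the other γδ and other αβ T-like sets. ILC2-like cells of the IL-18R- ST2+ library had 0.352 UPM (2 UMIs in 1158 cells). The ratio to type 17 γδ T-like cells of the same library was 476 (82.1 to 19104, against 1 UMI) for ILC1 and NK-like cells of the pool and 96.2 (38.9 to 285) for ILC3-like cells of the IL-18R- CD103- GFP- labelled library.

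Counted per cell, Batf3 was found in 14.99% of 387 cells with no CD3 UMI in the pool and 15.4% of 195 such cells in the IL-18R- CD103- GFP- labelled library. It was found in 0.161% of 1243 and 0.241% of 1663 cells with at least 2 CD3 UMIs, which is the background share in T cells. Thinned to 2000 UMIs per cell, the share was 16.7% in ILC1 and NK-like cells of the pool (37.5% unthinned) and 18.4% in ILC3-like cells of the IL-18R- CD103- GFP- labelled library (36.8% unthinned), against 0% in the type 17 γδ gates of both (0.151% and 0.309% unthinned). Of the 61, 34 and 4 cells with Batf3, 0, 0 and 1 had a UMI of Clec9a, Xcr1 or Flt3, which mark conventional dendritic cells. H2-Ab1 and Zbtb46, also seen in dendritic cells, were detected in several of the CD3-negative sets: the summed level of 6 dendritic markers was 74.7 to 213 UPM in the 3 innate sets of the pool and 83.2 and 199.5 UPM in ILC1 and NK-like and ILC3-like cells of the IL-18R- CD103- GFP- labelled library, against 0 to 37.3 UPM in T cell sets of both libraries.

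Jdp2 followed the same CD3-negative cells with a wider reach. In the pool it had 270 UPM (221 to 327) in ILC1 and NK-like cells, 198 UPM (148 to 259) in ILC progenitor-like cells and 134 UPM (92.5 to 187) in ILC3-like cells, against 6.38 UPM (3.89 to 9.85) in type 17 γδ T-like cells. The other 3 T cell sets had 3.27 to 6.42 UPM. Among the cells of the IL-18R- CD103- GFP- labelled library it had 67.6 UPM (36.0 to 116) in ILC1 and NK-like cells and 43.8 UPM (20.03 to 83.1) in ILC3-like cells, against 10.2 UPM (7.47 to 13.7) in type 17 γδ T-like cells. ILC2-like cells of the IL-18R- ST2+ library lay between, at 36.9 UPM (32.1 to 42.3) with Jdp2 in 12.0% of cells. Outside the lymphoid gates, the 49 myeloid-like cells of the pool had 85.1 UPM (55.6 to 125), with Jdp2 in 30.6% of cells. The T cell gates held 6.55% of the Jdp2 UMIs of the pool and the 3 innate gates 46.6%. In the IL-18R- CD103- GFP- labelled library these shares were 39.4% and 18.9%.

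Batf3 and Jdp2 met in the same cells of the pool, where 63.9% of 61 cells with Batf3 also had Jdp2, against 6.65% of cells without Batf3. Among cells with no CD3 UMI the shares were 65.5% and 22.2%. Among such cells of the IL-18R- CD103- GFP- labelled library they were 40% and 21.2%. Cells with more UMIs are more likely to show any gene, and the median was 7276 UMIs in the 3 innate sets of the pool combined, against 4687 UMIs in its type 17 γδ gate. The part of depth, or of doublets left in, in the co-detection was not tested.

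Batf, the best-known lymphocyte member of the 3, did not separate lineages in this way. Its level lay between 32.4 UPM in ILC2-like cells and 82.3 UPM in ILC1 and NK-like cells of the pool across 13 lymphoid sets. In type 17 γδ T-like cells it had 39.9 UPM (33.2 to 47.5) in the pool and 43.3 UPM (37.3 to 49.9) in the IL-18R- CD103- GFP- labelled library. In the type 17 αβ gate of the pool it had 36.0 UPM (23.9 to 52.0). It passed the size rule in ILC1 and NK-like (2.06, 1.35 to 3.06) and ILC progenitor-like cells (2.06, 1.25 to 3.26) of the pool over type 17 γδ T-like cells. Both calls end under median-of-ratios scaling (log2 0.90 and 0.92) and without 1 cell (0.77 and 0.64).

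**Figure D2:**
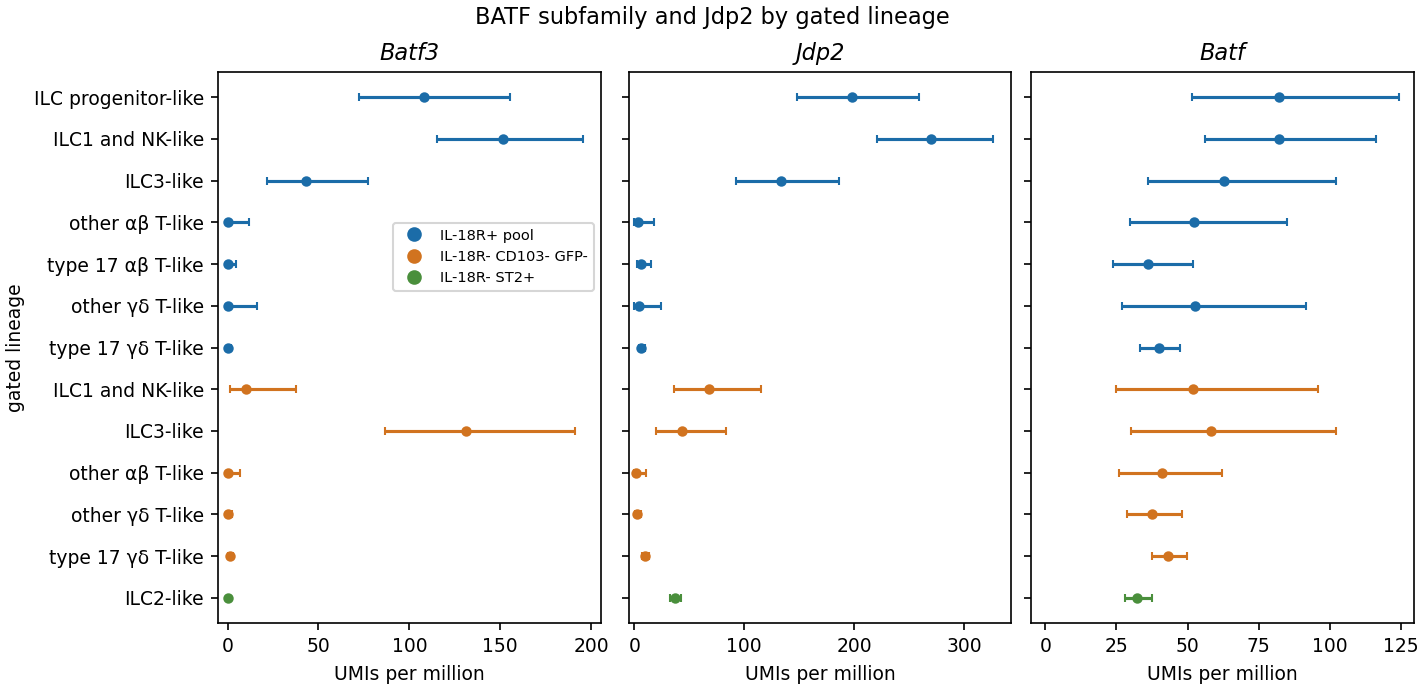
Batf3, Jdp2 and Batf in UPM (linear axes) for each gated lymphoid lineage of at least 20 cells, coloured by library, with 95% counting intervals. In T cell sets Batf3 is at most 1.37 UPM and Jdp2 at most 10.2 UPM. They reach 152 and 270 UPM in CD3-negative sets of the pool, and 131 and 67.6 UPM in those of the IL-18R- CD103- GFP- labelled library. Batf stays between 32.4 and 82.3 UPM.

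Within the pool and within the IL-18R- CD103- GFP- labelled library, type 17 γδ T-like cells had more Jun than nearly every other lymphoid lineage. In the pool it had 1076 UPM (1040 to 1113) in that gate, and the other 6 lymphoid sets compared with it had between 185 UPM (145 to 233) in ILC1 and NK-like cells and 356 UPM (315 to 400) in type 17 αβ T-like cells. Within the IL-18R- CD103- GFP- labelled library it had 136 UPM (119 to 155) in other γδ T-like cells, 151 UPM (120 to 188) in other αβ T-like cells and 250 UPM (184 to 331) in ILC1 and NK-like cells, against 755 UPM (730 to 781) in type 17 γδ T-like cells. ILC3-like cells were the exception within that library, with 1324 UPM (1171 to 1491). Jun was thus lower in 9 of 10 comparisons of a lineage with the type 17 γδ gate of its library. ILC2-like cells of the IL-18R- ST2+ library had 578 UPM (559 to 598), which was 0.538 (0.512 to 0.564) of the level in the type 17 γδ gate of the pool and 0.766 (0.730 to 0.804) of that in the IL-18R- CD103- GFP- labelled library, and passed the size rule against neither.

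The other FOS and JUN genes shared parts of this pattern. Fos was lower in 5 of the 10 comparisons, Junb in 4, Fosb in 3 and Fosl2 in 1, and none of these was higher in any. Jund was called in none. The Fos call in ILC3-like cells of the pool (log2 -1.01) ends as the mean of per-cell levels (-0.86). In other αβ T-like cells of the pool, Fos, Fosb and Junb (-0.82, -0.77 and -0.99) were not called and are called lower without 1 cell (-1.21, -1.09 and -1.12). Within the IL-18R- CD103- GFP- labelled library Fosb had 54.1 UPM (43.4 to 66.6) in other γδ T-like cells, against 504 UPM (484 to 526) in type 17 γδ T-like cells. Fos had 252 UPM (228 to 277) in other γδ T-like cells there, against 984 UPM (955 to 1014) in type 17 γδ T-like cells, and Junb had 1753 UPM against 5266 UPM. Atf3 had 20.9 UPM (14.5 to 29.2) in other γδ T-like cells, against 185 UPM (173 to 199), and was higher only in ILC3-like cells of that library, at 584 UPM (484 to 698).

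Set against the type 17 γδ gate of the pool, 0 of 8 measured members were higher and 2 lower in other γδ T-like cells, where 7.2% of all measured genes were higher and 7.97% lower. In type 17 αβ T-like cells 0 were higher and 1 lower of 8 (2.94% and 3.32% of genes), and in other αβ T-like cells 0 and 2 of 8 (6.08% and 12.7%). ILC1 and NK-like cells had 3 members higher and 3 lower of 10 (14.2% and 9.42%), ILC3-like cells 2 and 2 of 10 (12.8% and 9.89%) and ILC progenitor-like cells 3 and 3 of 10 (14.7% and 11.4%). Set against the type 17 γδ gate of the IL-18R- CD103- GFP- labelled library, other γδ T-like cells had 0 higher and 5 lower of 8 (4.93% and 16.1% of genes), and other αβ T-like cells 0 and 6 of 8 (5.28% and 17.8%). There ILC1 and NK-like cells had 1 higher and 2 lower of 9 (16.3% and 6.47%) and ILC3-like cells 3 and 0 of 10 (12.4% and 7.04%). With the 3 innate gates joined into 1 set, a choice made after seeing the data, 2 were higher (Batf3 and Jdp2) and 3 lower (Fos, Jun and Junb) of 10 in the pool, where 10.9% and 7.53% of genes were. The joined set of the IL-18R- CD103- GFP- labelled library had the same 2 higher and 0 lower of 10 (10.5% and 6.11%). In other αβ T-like cells of the pool, the Atf3 call (log2 -1.11) ends under median-of-ratios scaling (-0.98), and in those of the IL-18R- CD103- GFP- labelled library so does that of Fosl2 (-1.16 and -0.87). The pool's 3 small CD3-negative sets rest on 30 to 48 cells, and the type 17 γδ gate is shared by all comparisons within a library.

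**Figure D3:**
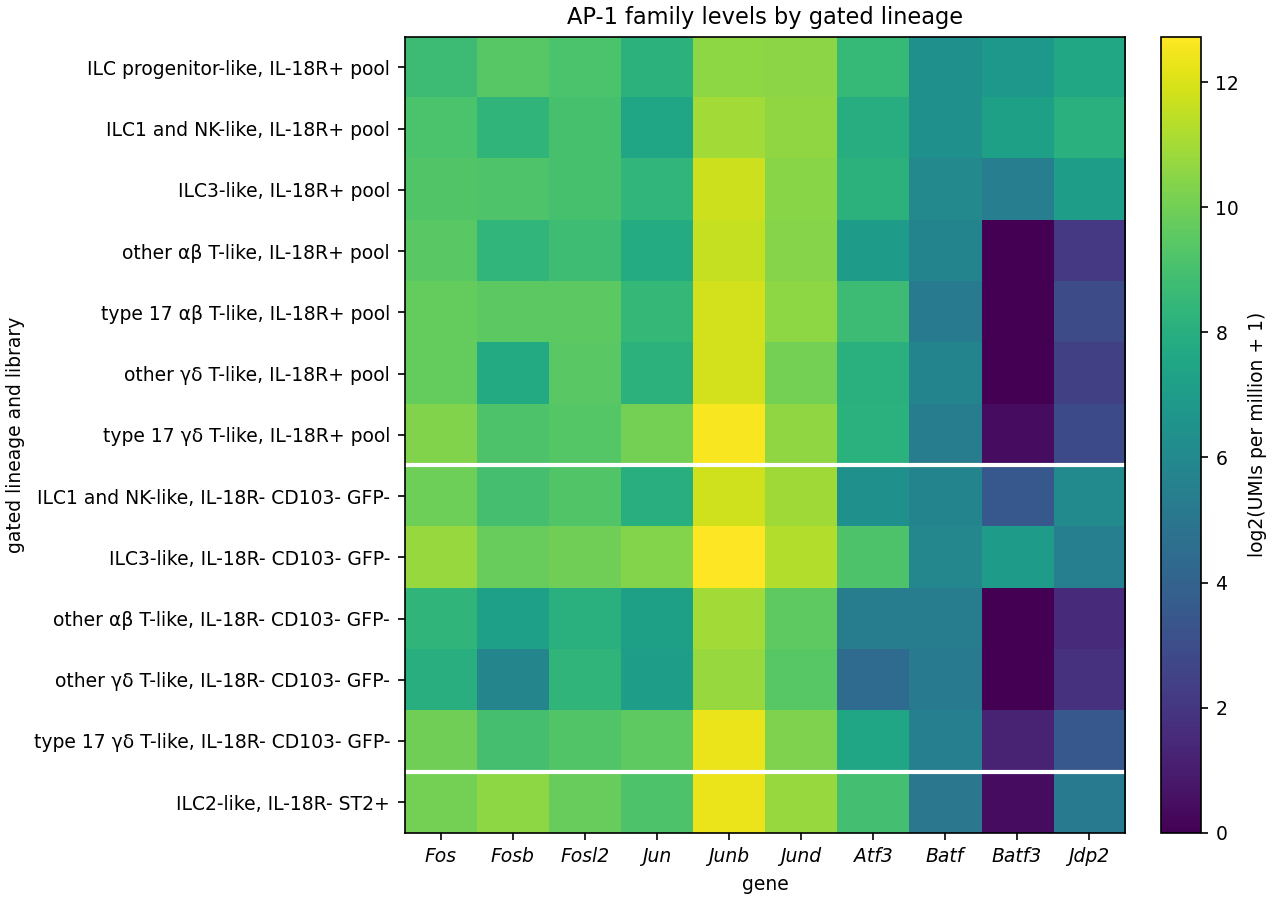
Level of each AP-1 gene as log2(UPM + 1), by gated lymphoid lineage of at least 20 cells and library (colour scale from 0). Batf3 and Jdp2 are dark in all T cell sets, Jun is brightest in the type 17 γδ sets and in ILC3-like cells of IL-18R- CD103- GFP-, and Fosb and Atf3 are darkest in other γδ T-like cells of that library.

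Of the gated sets of the pool, the stromal, endothelial and epithelial gate had the highest levels of Fos, Jun and Atf3. Its 53 cells had 5141 UPM of Fos (4847 to 5447), 4623 UPM of Jun (4345 to 4915) and 2226 UPM of Atf3 (2034 to 2431), with 211 UPM of Fosl2 and 4.50 UPM of Batf (1 UMI). Junb was lower there, at 4345 UPM, than in type 17 γδ T-like cells of the pool, at 6118 UPM. Cells in the myeloid, B cell and stromal gates together held 16.9% of the Fos UMIs and 16.9% of the Jun UMIs of the pool, against 3.06% and 4.21% of those of the IL-18R- CD103- GFP- labelled library. Without them the pool had 1015 UPM of Fos and 676.5 UPM of Jun, and the IL-18R- CD103- GFP- labelled library had 802 and 564 UPM.

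Holding the lineage fixed, the FOS and JUN genes differed little between the libraries in the type 17 γδ gate and by more in the others. Fos had 1254 UPM in type 17 γδ T-like cells of the pool and 984 UPM in those of the IL-18R- CD103- GFP- labelled library, a ratio of 1.27 (1.22 to 1.33), and the 8 measured members had ratios of 0.921 to 1.48. 0 of the 8 were higher and 0 lower there, where 0.16% of 5641 genes were higher and 0.425% lower. Their median log2 ratio was 0.28, beside 0.01 over all measured genes in that gate. In other γδ T-like cells 6 of 8 measured members were higher in the pool and 0 lower, where 15.8% of 5853 genes were higher and 4.46% lower. There Fos had 839 UPM (725 to 967) in the pool and 252 UPM (228 to 277) in the IL-18R- CD103- GFP- labelled library, and Atf3 had 267 UPM (204 to 342) in the pool and 20.9 UPM (14.5 to 29.2) in the IL-18R- CD103- GFP- labelled library. The median measured gene was 0.27 higher on the log2 scale in this gate of the pool, and median-of-ratios scaling, which removes that shift, ends the calls of Fosl2 (log2 0.87), Jun (0.81) and Junb (0.81) and keeps those of Fos, Fosb and Atf3.

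In other αβ T-like cells 3 of 8 measured members were higher in the pool and 0 lower (13.3% and 6.28% of genes): Fos with 709 UPM against 319 UPM, Fosb with 333.5 UPM against 144 UPM and Atf3 with 128 UPM against 39.2 UPM in the IL-18R- CD103- GFP- labelled library. The Fos and Fosb calls there end without 1 cell of the pool (log2 0.76 and 0.89), as does that of Jun in other γδ T-like cells (0.63). That of Fos also ends under median-of-ratios scaling (0.98) and as the mean of per-cell levels (0.78). The markers of these gates moved with the result. Ly6c2, a marker of memory T cells, had 267 UPM in other γδ T-like cells of the pool and 1013 UPM in those of the IL-18R- CD103- GFP- labelled library, and 203 and 762 UPM in other αβ T-like cells. The summed immediate early list outside the family was 10632 and 7596 UPM in other γδ T-like cells, and 12206 and 12792 UPM in type 17 γδ T-like cells. The part of cell state or of handling in these differences was not tested.

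ILC3-like cells went the other way. Fos had 625 UPM (531 to 730) in the pool and 1718 UPM (1543 to 1907) in the IL-18R- CD103- GFP- labelled library, and Jun had 326 UPM (260 to 404) in the pool and 1324 UPM (1171 to 1491) in the IL-18R- CD103- GFP- labelled library. Of 10 measured members, 4 were lower in the pool (Fos, Jun, Atf3 and Batf3) and 1 was higher (Jdp2), where 17.5% of 6316 genes were lower and 12.1% higher. The Atf3 call (log2 -1.03) ends under median-of-ratios scaling (-0.98), and the Jdp2 call (1.61) ends without 1 cell (0.74), while Fosl2 (-0.96) is called lower without 1 cell (-1.08). In ILC1 and NK-like cells 3 of 10 were higher in the pool (Atf3, Batf3 and Jdp2) and 0 lower, where 6.63% of 6701 genes were higher and 13.2% lower. With the 3 innate gates joined, 1 was higher (Jdp2) and 3 lower (Fos, Jun and Junb) of 10 in the pool, where 7.58% and 8.73% of genes were. Fos was 558 UPM in those cells of the pool and 952 UPM in those of the IL-18R- CD103- GFP- labelled library, a ratio of 0.586 (0.479 to 0.717) that misses the size rule and passes it without 1 cell (log2 -1.27). As the Gzma and Cd4 values above show, these 2 gates hold cells of different kinds in the libraries, so gate make-up and level per cell cannot be told apart.

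**Figure D4:**
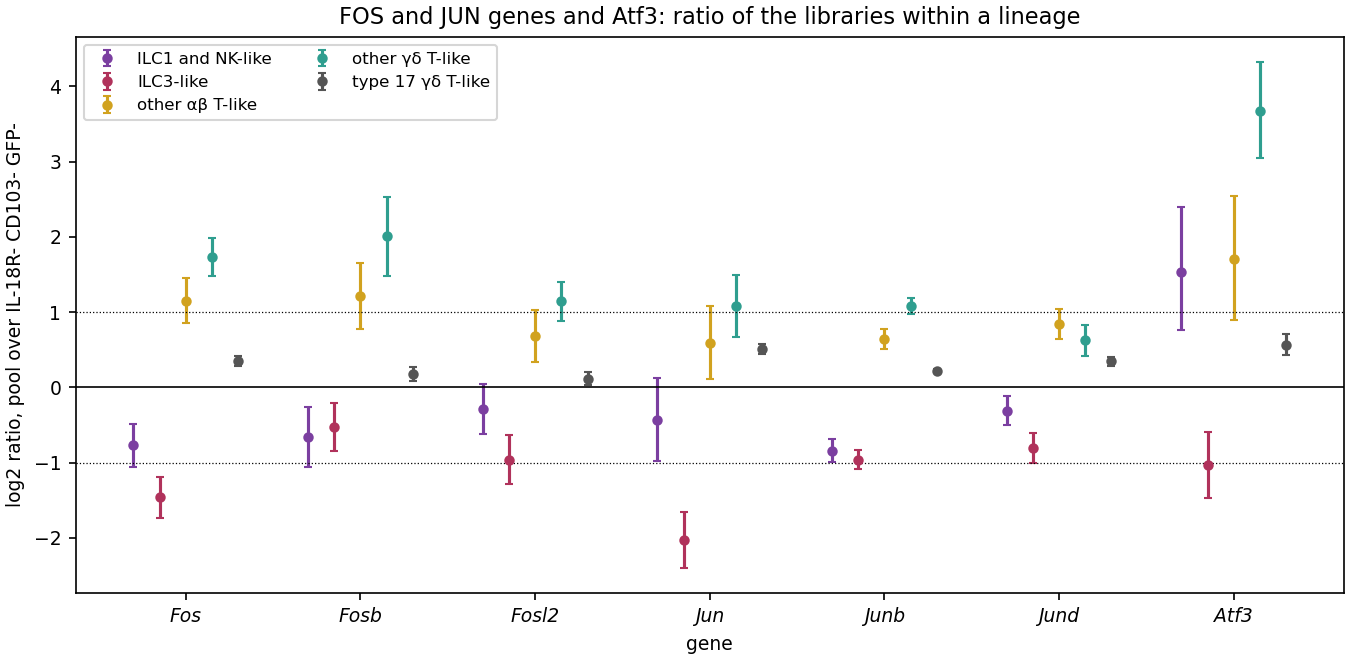
Log2 ratio of the pool over the library labelled IL-18R- CD103- GFP- within each of 5 gated lineages, for the FOS and JUN genes and Atf3, with 95% counting intervals and dotted lines at a ratio of 2 in either direction. Type 17 γδ T-like cells lie between 0 and 1, other γδ and other αβ T-like cells lie above 0 and ILC3-like cells lie below 0.

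ILC2-like cells of the IL-18R- ST2+ library, compared across libraries, had high Fosb. They had 1518 UPM (1486 to 1550) of it in 92.9% of cells, against 570 UPM in type 17 γδ T-like cells of the pool (2.67, 2.53 to 2.81) and 504 UPM in those of the IL-18R- CD103- GFP- labelled library (3.01, 2.87 to 3.16). Atf3 had 487.5 UPM in ILC2-like cells, against 274.5 and 185 UPM in the 2 type 17 γδ sets, and passed the size rule over the second alone. Of 9 measured members, 2 were higher (Fosb and Jdp2) and 0 lower over the type 17 γδ cells of the pool, where 6.15% of 5785 genes were higher and 12.7% lower. Over those of the IL-18R- CD103- GFP- labelled library 3 were higher (with Atf3) and 0 lower, where 5.73% of 5791 were higher and 12.2% lower. The few ILC2-like cells elsewhere had high Fosb too, 957 UPM (746 to 1209) in 11 cells of the pool and 2348 UPM (1994 to 2746) in 12 cells of the IL-18R- CD103- GFP- labelled library. The immediate early list outside the family summed to 18695 and 23851 UPM in those cells and to 23137 UPM in ILC2-like cells of the IL-18R- ST2+ library. In T-like cells of the IL-18R- ST2+ library it summed to 22494 UPM (18 other αβ), 18115 UPM (12 other γδ) and 9668 UPM (3 type 17 γδ). The T cell gates there held 193 Fosb UMIs, 1.66% of those of the library. This share is not a level, since these gates are small (113319, 64147 and 16136 of 7891960 UMIs, in the same order). They held 1.69% of the Fos UMIs and 2.27% of the Junb UMIs of the library. The parts of library and lineage in the Fosb level were not tested.

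Within 1 lineage, Fos, Fosb, Jun and Atf3 varied between cells far more than counting gives. Cells of 8 sets with at least 50 cells were thinned to 2000 UMIs, and the squared coefficient of variation in excess of Poisson counting was set beside that of all genes of at least 50 UPM in the set, whose median was 0.141 to 0.303. Fos had 1.07 to 3.03 over the 8 sets, Fosb 0.535 to 4.24, Jun 0.428 to 16.6 and Atf3, over 7 sets, 0.698 to 7.63. All of these lay above their set's median. The 16.6 of Jun came from 80 other αβ T-like cells of the IL-18R- CD103- GFP- labelled library. Their mean was 0.3375 thinned Jun UMIs, and 1 cell held 13. In type 17 γδ T-like cells of the pool the top 10% of cells by Fos held 39.95% of its UMIs, and the top 10% by Atf3 held 69.8%. This share rises as a gene gets rarer (74.4% for Batf there), and no counting expectation was set beside it.

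The steadier members were Junb (0.235 to 0.695), Jund (0.140 to 0.678) and Fosl2 (-0.517 to 1.52), each above the median in 7 of 8 sets. Batf reached the level minimum in the other αβ T-like sets of 51 and 80 cells, below the median in both (-0.907 and -0.921). No cell of either set had more than 1 thinned Batf UMI, which fixes an excess below 0, so these 2 values do not measure steadiness. In the 3 largest sets, where Batf lay under the level minimum, its excess was 0.710, 1.93 and 1.00, above the medians of those sets. Jdp2 reached that minimum in none. Its excess was 2.999 in type 17 γδ T-like cells of the IL-18R- CD103- GFP- labelled library and 2.28 in ILC2-like cells, above the medians of 0.268 and 0.287. It was at or below 0 in the other 4 sets with a thinned UMI of it, where no cell had more than 1. Batf3 had at most 1 UMI in each thinned set, so its spread was not measurable there. In all, 52 of 57 member values lay above their set's median, with the 2 of Batf counted among the 57. The genes behind each median were not matched to the members on level. In small sets, genes near 50 UPM can be held below 0 as Batf was. The count is therefore no comparison at like level. Between the 3 lymphoid sets of at least 50 cells in the pool, Jun spanned a log2 range of 2.23 and Jund 0.19, and between the 3 of the IL-18R- CD103- GFP- labelled library Fosb spanned 3.22, Atf3 3.15, Jun 2.48 and Fos 1.97. In the pool Fos spanned 0.82, Fosb 1.11 and Atf3 1.71, while Junb spanned 0.99 there and 1.59 in the other library. Over all genes of at least 50 UPM the median range was 0.50 in the pool and 0.61 in the other library. The 90th percentiles were 1.32 and 1.98. Fos, Fosb, Jun and Atf3 thus varied on both scales, with Fos under that percentile in each library and Fosb under it in the pool. The CD3-negative sets with the highest levels of Batf3 and Jdp2 had 30 to 48 cells and were outside this measure. In ILC1 and NK-like cells of the pool the top 10% of cells held 69.5% of the Batf3 UMIs and 50.5% of the Jdp2 UMIs, beside 62.5% of those of Batf. No counting expectation was set beside these shares either.

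**Figure D5:**
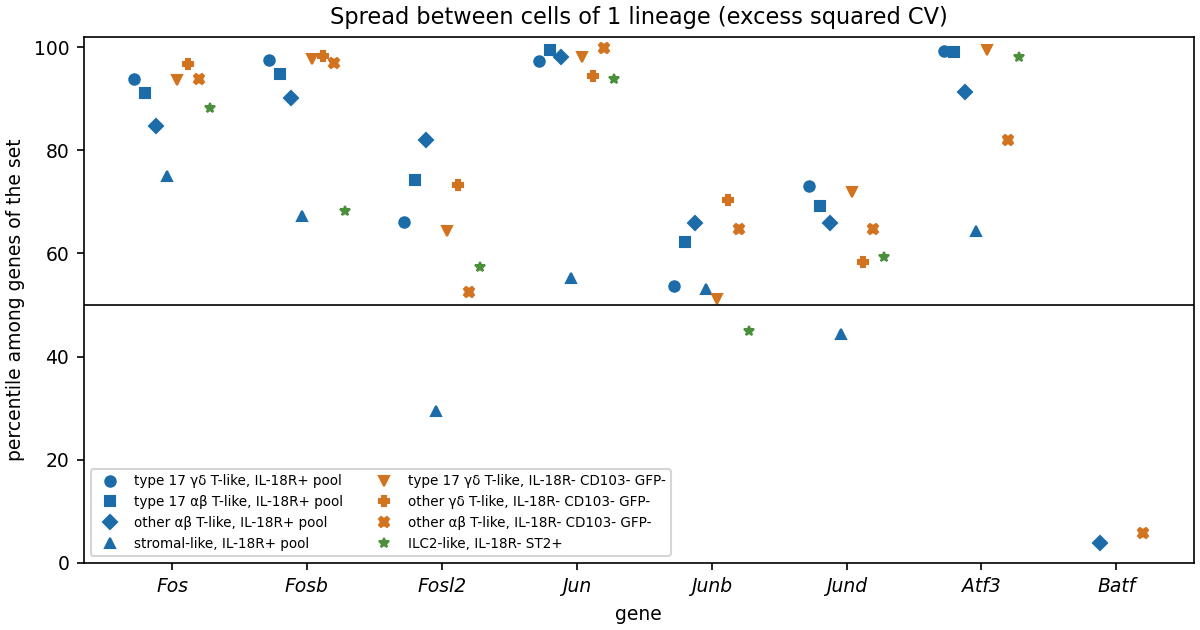
Percentile of each AP-1 gene's excess squared coefficient of variation among genes of at least 50 UPM in the same gated set, for 8 sets (marker shape) of the 3 libraries (colour), with the median as a line at 50. Those genes were not matched to the members on level. Fos, Fosb, Jun and Atf3 lie above the line in every set shown for them, from 55.2 (Jun in the stromal set) upward. Batf lies at 3.89 and 5.77, in sets where no cell had more than 1 thinned UMI of it, which fixes a low value.

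Across cells of 1 set the members were only weakly tied. Pearson's r of Fos with Jun on thinned log2 counts was 0.133 to 0.400 over the 8 sets, that of Fos with Fosb 0.211 to 0.573 and that of Fos with Fosl2 -0.034 to 0.104. In sparse counts such values describe the cells and are no finding. The genes whose correlation with Fos across cells was highest on average were Dusp1 (0.304), Zfp36 (0.239), Gadd45b (0.202), Klf4 (0.199) and Btg2 (0.193), and with Jun they were Zfp36 (0.307), Hspa1b (0.299), Dusp1 (0.235), Hspa1a (0.215) and Akna (0.171). Most are immediate early or heat shock genes. The correlation of Jun with the summed heat shock list was 0.054 to 0.310, and that of Batf with it -0.115 to 0.041.

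Over the 8 sets of at least 50 cells, the genes whose level was most like that of Fos were Tmbim4 (Pearson's r 0.986), Ccnl1 (0.985), She (0.981), Znhit1 (0.981) and Ywhab (0.978). Those most like Batf were Ly9 (0.988), Selenoh (0.988), Snrpg (0.987), Arhgef1 (0.985) and Gstp3 (0.983). One of the 8 sets is stromal and stands far from the rest. Over 13 lymphoid sets of at least 20 cells, a choice made after seeing the data, Tox2 (0.972), Tnfrsf9 (0.969) and Impa2 (0.943) were most like Batf3, and Meis1 (0.963), Impa2 (0.947) and Eml4 (0.936) were most like Jdp2. Sets of 1 library share its depth and handling, and genes high in CD3-negative cells will rank high by this measure.

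Of 23 measured immediate early genes outside the family, 3 were higher and 8 lower in the pool than in the IL-18R- ST2+ library, where 12.3% of all measured genes were higher and 4.33% lower, with a median log2 ratio of -0.71 beside 0.30 over all measured genes. Of the 23, 2 were higher and 9 lower in the IL-18R- CD103- GFP- labelled library than in the IL-18R- ST2+ library (median -0.72 beside 0.19), where 9.57% and 5.4% of all genes were. Egr3, a zinc finger early gene, had 14.6 UPM in the pool and 10.8 UPM in the IL-18R- CD103- GFP- labelled library, against 380.5 UPM in the IL-18R- ST2+ library, and the nuclear receptor Nr4a1 had 559 and 499 UPM, against 2267 UPM. Between the pool and the IL-18R- CD103- GFP- labelled library, 1 of 22 was higher (Ier3, 90.6 against 35.1 UPM), where 2.55% of all genes were. These shares of all genes hold for the lists that follow. The whole-library list values keep the cells of the myeloid, B cell and stromal gates. In type 17 γδ T-like cells 0 of 21 measured immediate early genes were called between those 2 libraries, where 0.16% of 5641 genes were higher and 0.425% lower.

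The dual-specificity phosphatases that switch off AP-1 kinases split. Of 16 measured kinases and phosphatases, 2 were higher and 2 lower in the pool than in the IL-18R- ST2+ library (median log2 ratio 0.17 beside 0.30 over all measured genes). Dusp2 had 99.4 UPM in the pool and 180 UPM in the IL-18R- CD103- GFP- labelled library, against 21.8 UPM in the IL-18R- ST2+ library, while Dusp6 had 14.5 and 18.3 UPM, against 47.5 UPM. Of the 16, 2 were higher and 1 lower in the IL-18R- CD103- GFP- labelled library than in the IL-18R- ST2+ library, and 0 of 15 were called between the pool and the IL-18R- CD103- GFP- labelled library.

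Among the other leucine zipper genes, 5 of 17 measured were higher and 1 lower in the pool than in the IL-18R- ST2+ library (median 0.57 beside 0.30), and 3 were higher in the IL-18R- CD103- GFP- labelled library than there. Maf, a type 17 regulator, had 572 UPM in the pool and 630 UPM in the IL-18R- CD103- GFP- labelled library, against 221 UPM in the IL-18R- ST2+ library. Between the pool and the IL-18R- CD103- GFP- labelled library 0 of 17 were called. Irf8, which pairs with BATF proteins, had 29.8 UPM in the pool, 14.1 UPM in the IL-18R- CD103- GFP- labelled library and 4.94 UPM in the IL-18R- ST2+ library, while Irf4 was under 20 UPM in each. Of 12 measured heat shock genes 4 were higher and 0 lower in the pool than in the IL-18R- ST2+ library (median 0.50 beside 0.30 and 12.3% of all genes higher), among them Hspa1a with 56.5 UPM against 12.8 UPM, and 1 of 12 (Hspb1, 22.4 against 3.23 UPM) was higher than in the IL-18R- CD103- GFP- labelled library. In type 17 γδ T-like cells 0 of 11 heat shock genes were called between the pool and that library.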

How the data were processed

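Single-cell libraries were made with 10x Chromium 3′ v3.1 chemistry, per the labels' protocols, and the deposited matrices hold raw UMI counts per gene and barcode, per the file headers. Cell Ranger 6.0.1 and mm10 are named in the submitters' processing notes. Barcodes with under 500 genes or over 10% mitochondrial UMIs were removed (29, 20 and 138), as were the 26 doublet calls of Scrublet (0.503% of 5164 barcodes). By library the calls were 0.241%, 0.584% and 0.678% of barcodes, against 1.35%, 1.52% and 1.41% expected. The share in the pool lay under the 0.5% below which calls were not trusted. Doublets of like cells remain, and those of unlike cells may remain. Raw UMIs were summed per library and per marker gate and divided by the total. No test was possible with 1 library a group, so intervals are exact Poisson, Clopper-Pearson or conditional binomial, at 95%, and cover counting error only. Cells were thinned to 2000 UMIs for shares, spread and correlations, leaving out 19, 19 and 14 shallower cells. Named genes outside the family were the 4 most changed of each list and the 5 likest genes to a member. Alternatives were TMM (edgeR 4.0.16) and median-of-ratios scaling, no level minimum, every barcode, stricter gates, thinning to 3000 UMIs and mean per-cell levels. The procedures were tested on simulated data. Python 3.11.15, scanpy 1.11.5 and R 4.3.3 were used, with loci from GENCODE M21 and promoters from RefSeq (GRCm38.p6). One of the genes used in gating is not named here. The members and gene lists were chosen with earlier results of these data known. The dendritic and memory T cell markers were added after the data were seen.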

Additional observations from a re-analysis of the deposited data

Results flagged for a closer look

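Within a gated lineage, 4 members moved in opposite directions between the pool and the IL-18R- CD103- GFP- labelled library in different lineages, and the differences between lineages were not tested. Values are log2 ratios of the pool over that library. Fos was higher in other γδ T-like cells (1.736) and other αβ T-like cells (1.151) and lower in ILC3-like cells (-1.459). Jun was higher in other γδ T-like cells (1.087) and lower in ILC3-like cells (-2.021). Atf3 was higher in other γδ T-like (3.674), other αβ T-like (1.701) and ILC1 and NK-like cells (1.537) and lower in ILC3-like cells (-1.026). Batf3 was higher in ILC1 and NK-like cells (3.28, with 2 UMIs in the second library) and lower in ILC3-like cells (-1.604, with 8 of the pool's 11 UMIs in 1 cell). Several of these calls end under alternatives: Jun in other γδ T-like cells under median-of-ratios scaling (0.81) and without 1 cell (0.63), Fos in other αβ T-like cells without 1 cell (0.76), and Atf3 in ILC3-like cells under median-of-ratios scaling (-0.98). With the 3 innate gates joined, Fos (-1.38) and Jun (-1.62) were lower in the pool, and Atf3 (-0.20) and Batf3 (0.61) missed the size rule. The ILC1 and NK-like and ILC3-like gates hold cells of different kinds in the libraries, by their Gzma and Cd4 levels.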

How the results depend on the processing

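Of 866 recomputed log2 ratios of single members, 734 moved by less than their counting interval, 132 moved by more and 0 called values changed sign. All 160 values with no level minimum and all 40 with the innate gates joined are among the 734. They could not move, since these settings leave those ratios unchanged. All 133 values with stricter gates are among the 734 too. Those gates changed only the T cell and ILC2 cuts. Ratios between the pool and the IL-18R- CD103- GFP- labelled library in ILC1 and NK-like and ILC3-like cells therefore could not move either. No stricter cut was tried for the CD3-negative ST2-negative gates. Under TMM scaling 4 of 27 moved by less than the interval and 23 by more. Members called in the pool over the IL-18R- CD103- GFP- labelled library numbered 1 in place of 2 under TMM scaling, median-of-ratios scaling, without myeloid, B and stromal cells and as the mean of per-cell levels, since Atf3 dropped out (log2 1.06, and 0.92, 0.91, 0.91 and 0.99 under these). With no level minimum, 2 in place of 1 were called between the pool and the IL-18R- ST2+ library (Batf3 joined). Calls between lineages numbered 23 of 60 with the 3 innate gates joined, against 38 of 89, since fewer comparisons were made. Scaling moved the all-gene balance: 74.01% of called genes were higher in the pool than in the IL-18R- ST2+ library by library totals, 58.1% by TMM and 55.7% by median of ratios, and for the IL-18R- CD103- GFP- labelled library 63.9%, 55.3% and 53.5%. No paired analysis was possible because each group has 1 library. Depth limits Batf3 and Jdp2 most: 3 UMIs are 0.334, 0.313 and 0.380 UPM of a library, and up to 15.6 UPM of a compared set.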
